A study of Pinus pinaster with 14 samples.

Results

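The hypocotyl pith, the core of the stem below the cotyledons, was profiled as 1 library of laser-microdissected cells from maritime pine (Pinus pinaster) seedlings, out of 14 libraries of different seedling tissues. It was chosen by its label and set first against hypocotyl cortex and hypocotyl vascular tissue, 1 library each, and then against all 13 other libraries. All libraries came from untreated seedlings of the Oria provenance, grown in soil in a culture chamber and harvested at 1 month. Their RNA was amplified as cDNA and sequenced by pyrosequencing, which gives fewer and longer reads than later short-read methods. The other 11 libraries were cotyledon mesophyll and vascular tissue, young needle mesophyll and vascular tissue, emerging needles, the apical and root meristems, and cortex and vascular tissue of the root and of the developing root. The number of seedlings behind a library is not in the labels, and some seedlings may have given several tissues.

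The pith is ground parenchyma enclosed by the ring of vascular tissue. Its cells are known for storing starch and other reserves, and they die early in many stems. The cortex is the ground tissue outside that ring, and the vascular tissue holds the water-conducting xylem and the sugar-conducting phloem. Pith and cortex are thus the same kind of tissue on opposite sides of the vascular ring, and the comparison shows how far the pith resembled each neighbour.

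The pith library held 1096230 reads, against 519134 in hypocotyl cortex and 746901 in hypocotyl vascular tissue, and the other 13 ranged from 519134 to 1536389. Values below are normalised read counts, that is CPM on a library size corrected for composition. A single read was worth 0.962 in pith, 3.76 in cortex and 1.12 in vascular tissue. The transcripts carry assembly identifiers that are not paired with gene names in the files used here, so the tissue labels could not be checked against marker genes and no pathway can be named. In tissue samples of this kind, fewer cells expressing a transcript and less of it per cell cannot be told apart. No tissue had a replicate library, so the differences between pith and cortex or vascular tissue have no replicate check and no test.

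The pith library stood apart in its relation to cotyledon mesophyll, the photosynthetic tissue of the seed leaves. Of 741 transcripts with at least 200 reads in cotyledon mesophyll, all had reads in pith, and the pith count was never below 15.8% of the cotyledon mesophyll count. In the 12 libraries other than pith, between 20 and 155 of those 741 transcripts had no reads. The pith count was 23.3% of the cotyledon mesophyll count at the 5th percentile of the 741 transcripts and 57.3% at the median. The 5th percentile was at most 0.733% in each of the other 12 libraries. Pith reads therefore had a floor set by the cotyledon mesophyll count, whose origin was not tested. The floor reached low counts too: of 8024 transcripts with at least 10 reads in cotyledon mesophyll, 16 had no pith reads, while 1128 had none in hypocotyl vascular tissue. Results are given with all transcripts, without those abundant in cotyledon mesophyll, and after taking 23.3% of each cotyledon mesophyll count off the pith, which removed 18.3% of pith reads. Of the 741, 238 had pith reads at least 4 times that share. Hypocotyl vascular tissue had a similar floor against young needle vascular tissue, at 20.2% at the 5th percentile of 878 transcripts, and it was subtracted in the same way where stated. The apical meristem also had reads at all 237 transcripts with 200 or more reads in hypocotyl cortex and at all 203 of root cortex. Its 5th percentiles there were 9.87% and 4.45%, and nothing was subtracted from it.

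**Figure D1:**
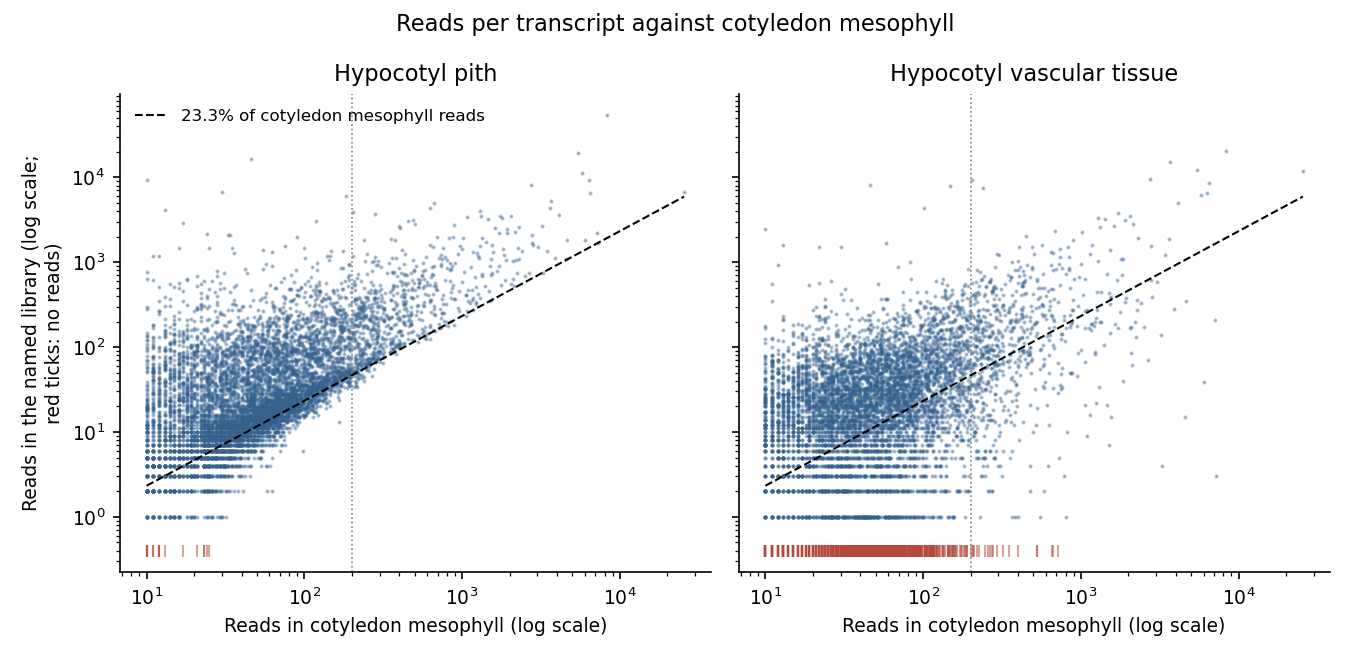
Reads per transcript in hypocotyl pith (left) and hypocotyl vascular tissue (right) against reads in cotyledon mesophyll, both on log scales, for the 8024 transcripts with at least 10 cotyledon mesophyll reads. Points are transcripts, red ticks are transcripts without reads in the named library, the dashed line marks 23.3% of the cotyledon mesophyll count and the dotted line 200 reads. Pith points end near the dashed line, with 16 red ticks, whereas hypocotyl vascular points spread well below it, with 1128.

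The pith library had reads in 16474 of the 23493 transcripts, more than 12 of the 13 others, and 15205 when every library was thinned to the depth of hypocotyl cortex. After the cotyledon mesophyll share was subtracted it had reads in 14570, fewer than 4 of the others as deposited and more than 9. Its 10 most abundant transcripts held 13.5% of its reads (95% Wilson interval 13.4 to 13.5%), near the median of the others at 13.6%, and 410 transcripts held 50% of its reads. At equal depth 8031 transcripts had reads in all 3 hypocotyl tissues. A further 3183 had reads in pith and vascular tissue but not cortex, 1926 in pith and cortex but not vascular tissue, and 1431 in cortex and vascular tissue but not pith. Reads in pith alone were found for 2065 transcripts, against 1708 in cortex alone and 2454 in vascular tissue alone. Without transcripts with 10 or more reads in cotyledon mesophyll, and at full depth, 1395 transcripts had reads in pith alone, 1377 in cortex alone and 2168 in vascular tissue alone. A library without reads does not show that the transcript is absent: 3 reads, the limit that a count of 0 allows, were worth 2.88 in pith, 11.3 in cortex and 3.35 in vascular tissue.

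The transcript with the most pith reads, unigene208496, took 4.91% of them (95% Wilson interval 4.87 to 4.95%). It stood at 51788 in pith, 218843 in cortex and 22559 in vascular tissue. The second, unigene5990, stood at 18409 in pith, 83036 in cortex and 13751 in vascular tissue. In the deposited scaling pith was thus nearer vascular tissue than cortex at both, and more than 4-fold below cortex. Next came isotig10488, which stood at 15786 in pith, 3.76 in cortex (1 read) and 9086 in vascular tissue. This transcript was shared by pith and vascular tissue: it reached 2621 in cotyledon vascular tissue and 305 in root vascular tissue, 56.2 in root cortex, 38.7 in cotyledon mesophyll and 52.1 in young needle vascular tissue, and at most 13.2 in the 6 remaining libraries, with no reads in 3 of them. These 3 transcripts were named after their values were seen. Among the 100 most abundant pith transcripts, 52 were also among the 100 most abundant of hypocotyl vascular tissue, 48 of cotyledon mesophyll, 46 of cotyledon vascular tissue and 41 of hypocotyl cortex, and 20 of the root meristem, the smallest overlap. Of these 100 pith transcripts, 72 had 200 or more cotyledon mesophyll reads. The list is thus subject to the floor, and it was not remade without them.

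Pith was compared with both neighbours by a rule of size: the pith value plus 5 had to be at least 4 times that of each neighbour, or that of each neighbour at least 4 times that of pith. Of 16055 transcripts at 10 or more in at least 1 of the 3 libraries, 1339 (8.34%) were higher in pith than in both cortex and vascular tissue, and 220 (1.37%) were lower than in both. These counts are not on equal terms: higher could be met with pith alone at 15 or more, but lower needed both neighbours at 15 or more. The same counts for cortex or vascular tissue against the remaining tissues were not made, so the imbalance is not shown to be particular to pith. Those higher in pith held 14.4% of pith reads, 0.491% of cortex reads and 1.48% of vascular reads, and their median value was 55.8 in pith, 0 in cortex and 1.12 in vascular tissue. Most had modest counts: 380 of the 1339 had 100 or more pith reads and 531 had no reads in either neighbour. Those lower in pith had a median of 0.962 in pith, 37.6 in cortex and 36.8 in vascular tissue, and 100 of the 220 had no pith reads. Just inside the rule the ratio of values plus 5 was 4.001 for the higher and 4.006 for the lower transcripts, and just outside it was 3.992 and 3.991. With each value raised to at least what 3 reads are worth in its library, 627 were higher and 110 lower. This was among all 23493 transcripts, because 3 cortex reads are worth 11.3 and pass the filter of 10.

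**Figure D2:**
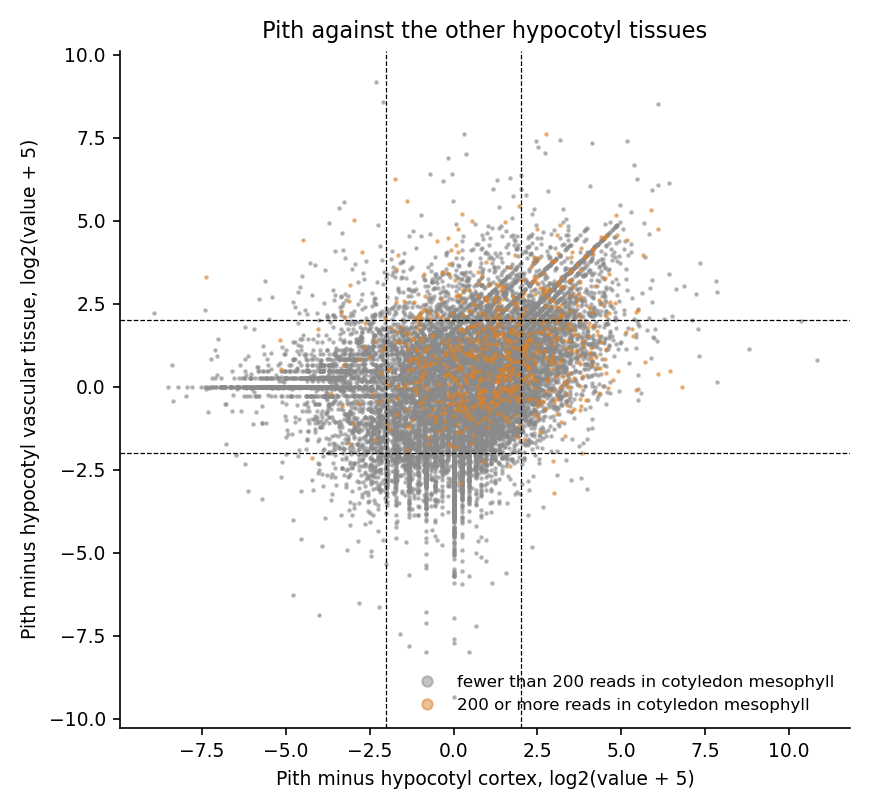
Difference between hypocotyl pith and hypocotyl cortex (horizontal) and between hypocotyl pith and hypocotyl vascular tissue (vertical), both in log2(value + 5), for 16055 transcripts. Dashed lines mark a 4-fold difference, and orange points are transcripts with 200 or more reads in cotyledon mesophyll. The upper right corner holds 1339 transcripts and the lower left corner 220, with 96 orange points in the upper right and 1 in the lower left.

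In counts, leaving out transcripts abundant in cotyledon mesophyll took more from the higher than from the lower side. As a share of the transcripts compared, the higher side moved little, from 8.34% to between 7.58% and 8.16%. The lower side rose from 1.37% to at most 2.0%. Subtracting the cotyledon mesophyll share from pith can only lower the higher count and raise the lower count. Without the 741 transcripts there were 1243 higher (8.12%) and 219 lower (1.43%) among 15314, and without those with 50 or more cotyledon mesophyll reads 938 higher (7.58%) and 209 lower (1.69%) among 12370. Without those with 10 or more there were 736 higher and 180 lower among 9018, or 8.16% and 2.0%. After the share was subtracted from pith, 1003 were higher (6.56% of 15297), all of them among the 1339, and 548 were lower (3.58%), including all 220. The subtraction only lowers pith counts, so this nesting was fixed in advance. Of the 96 abundant in cotyledon mesophyll that were higher with the deposited values, 26 were still higher. With both floors subtracted 1265 were higher and 357 lower among 13754 (9.2% and 2.6%). The higher ones shared 1041 transcripts with the 1339 (82.3% of the 1265 and 77.7% of the 1339), and the lower ones 143 with the 220 (40.1% of the 357 and 65.0% of the 220).

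Ranked by the smaller of their differences from the neighbours, the largest excess of pith was at isotig10634, which stood at 422 in pith (439 reads), had no reads in cortex and stood at 1.12 in vascular tissue (1 read). Pith was at least 37.4-fold higher than cortex, with 3 cortex reads as the limit, and 378-fold higher than vascular tissue (exact 95% counting interval 67.5 to 14969). Outside the hypocotyl it was highest in cotyledon mesophyll at 97.6 (116 reads) and in emerging needles at 62.4. After the subtraction pith stood at 396.

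Next was isotig15372, at 2631 in pith (2736 reads), 33.8 in cortex (9 reads) and 2.23 in vascular tissue (2 reads). Pith was 77.8-fold higher than cortex (40.9 to 170) and 1178-fold higher than vascular tissue (326 to 9735). Elsewhere the transcript was highest in the root, and it stood at 1360 in root vascular tissue and 382 in root cortex, 57.1 in the apical meristem and 40.6 in developing root cortex. No reads were found in cotyledon mesophyll, young needle mesophyll or emerging needles. These intervals cover counting error only, because reads of amplified cDNA are not independent molecules.

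The largest shortfall was at isotig35576, with 3 reads in pith (2.88), 57 in cortex (214) and 540 in vascular tissue (603). Pith was 74.3-fold lower than cortex (24.2 to 371) and 209-fold lower than vascular tissue (71.1 to 1016). These 3 reads were fewer than the share taken off for cotyledon mesophyll (19 reads), so pith had none after the subtraction. The transcript was present in most other libraries, from 228 in root cortex and 155 in developing root cortex to 1.30 in the root meristem, with no reads in young needle mesophyll and emerging needles. The next, isotig104779, had no reads in pith and stood at 113 in cortex (30 reads) and 116 in vascular tissue (104 reads), so pith was at least 39.1-fold and 40.2-fold lower. It stood at 116 in young needle vascular tissue too, and hypocotyl vascular tissue was at 82.6 once the young needle vascular share was taken off.

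**Figure D3:**
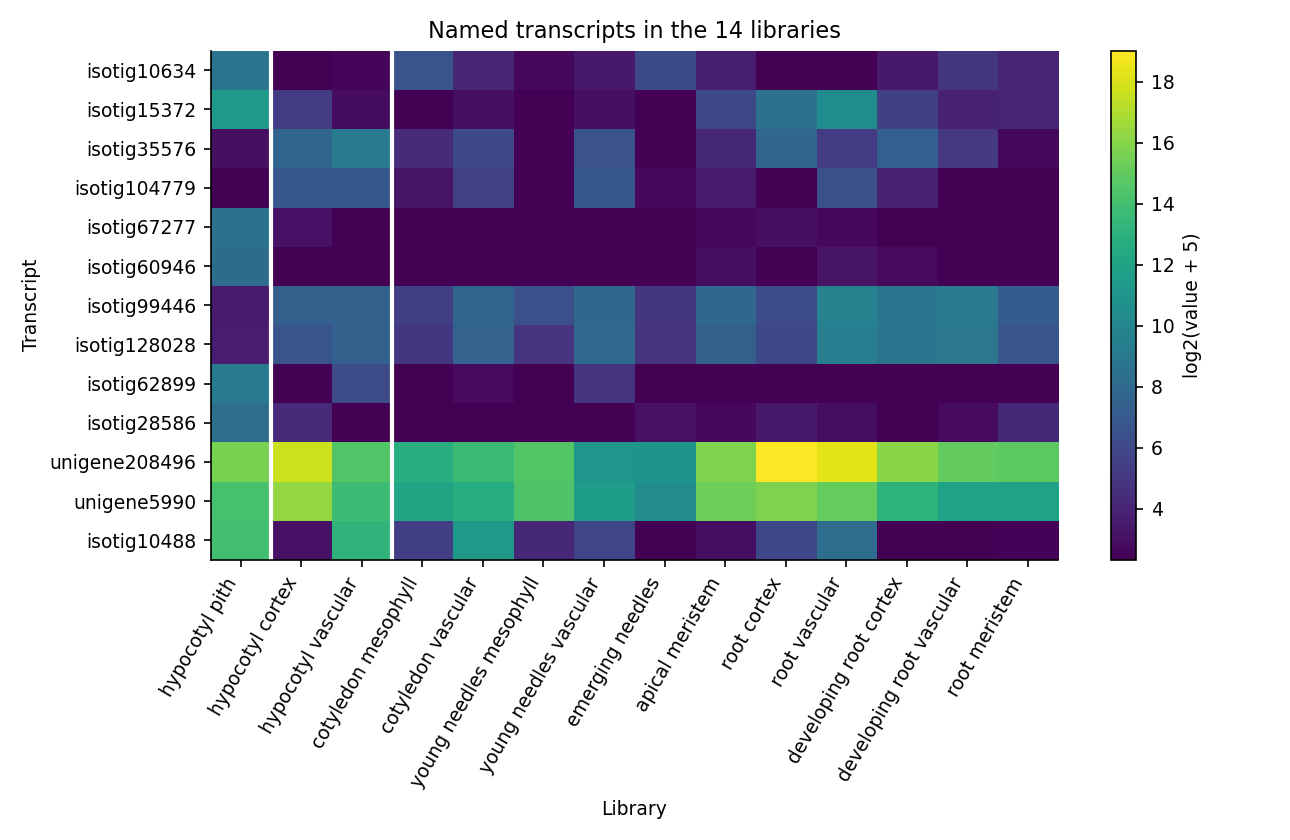
Level of each named transcript, as log2(value + 5), in the 14 libraries, with pith at the far left, the other hypocotyl tissues between the white lines and the 11 remaining libraries to the right. Darkest cells have no or few reads. For example, isotig67277 is bright in pith, at 380, and dark in all others, at 3.76 or less, while isotig99446 is dark in pith, at 6.73, and brighter in every other library.

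Each neighbour alone differed from pith at far more transcripts. Against cortex, 2977 of 12909 were higher in pith (23.1%) and 2733 lower (21.2%). Against vascular tissue, 2337 of 13333 were higher in pith (17.5%) and 2245 lower (16.8%). In all, 44.2% of transcripts were 4-fold apart between pith and cortex and 34.4% between pith and vascular tissue, while cortex and vascular tissue were apart at 46.5%. Over all 91 pairs of libraries this share ran from 12.7 to 70.7% with a median of 51.1%, and pith and cotyledon mesophyll were apart at 25.5%. Without transcripts with 10 or more cotyledon mesophyll reads, pith and cortex were apart at 55.8%, pith and vascular tissue at 48.2%, and cortex and vascular tissue at 56.3%. Pith and cotyledon mesophyll were then apart at 66.9%. This filter holds cotyledon mesophyll under 10, so only transcripts with pith at 10 or more were compared. The 66.9% is therefore raised by the filter and is not comparable with the others. By the share 4-fold apart, pith was closer to vascular tissue than to cortex in both settings. With the filter, cortex was about as far from pith as from vascular tissue. Hypocotyl cortex was the shallowest library, with 1 read worth 3.76 against 1.12 in hypocotyl vascular tissue, which has a floor of its own. The part of depth, floor and scaling in this order was not tested.

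The near balance of higher and lower transcripts changed with the transcripts abundant in cotyledon mesophyll and with scaling. Without the 741, 2727 were higher and 2702 lower than cortex (22.4% and 22.2%), and 2143 higher and 2239 lower than vascular tissue (17.0% and 17.8%). Without those with 50 or more cotyledon mesophyll reads, 1790 were higher and 2601 lower than cortex (19.3% and 28.1%), and 1611 higher and 2157 lower than vascular tissue (16.7% and 22.3%). Without transcripts with 10 or more cotyledon mesophyll reads, 1213 were higher and 2361 lower than cortex among 6401 (19.0% and 36.9%), and 1244 higher and 1904 lower than vascular tissue among 6536 (19.0% and 29.1%). After subtraction from pith, which can only lower it, 2163 were higher and 3371 lower than cortex (18.8% and 29.3% of 11523). Against vascular tissue 1778 were then higher and 3230 lower (14.5% and 26.3% of 12275). With both floors subtracted the balance against vascular tissue turned to 2249 higher and 1736 lower (21.7% and 16.8% of 10348). CPM of the plain library total in place of the deposited scaling shifts pith by 0.89 against cortex and by -0.34 against vascular tissue on the log2 scale. With it 66.2% of the transcripts that differed from cortex were higher in pith, against 52.1% with the deposited values.

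**Figure D4:**
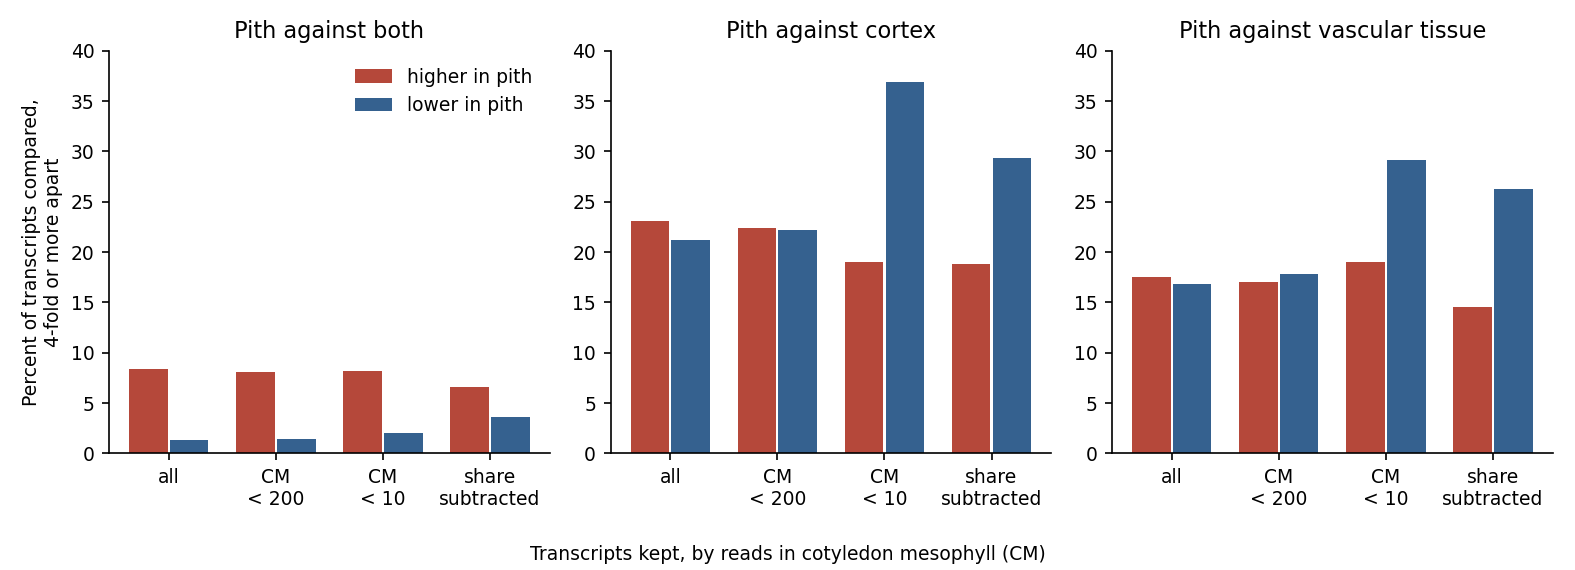
Share of transcripts at which hypocotyl pith was at least 4-fold higher (red) or lower (blue) than both other hypocotyl tissues, than cortex and than vascular tissue, in percent of the transcripts compared. In each panel the bars give all transcripts, those with fewer than 200 and fewer than 10 reads in cotyledon mesophyll (CM), and pith after subtraction. Against both, the lower share grew from 1.37% with all transcripts to 3.58% after subtraction, which can only lower pith. Against cortex it was 21.2% with all transcripts and 36.9% with fewer than 10 cotyledon mesophyll reads.

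Where cortex and vascular tissue differed from each other, pith tended to lie with the lower of the pair. At 3195 transcripts cortex was at least 4-fold above vascular tissue, and pith lay closer to vascular tissue at 75.4% of them. The median at these transcripts was 3.85 in pith, 78.9 in cortex and 0 in vascular tissue. At 3219 transcripts vascular tissue was at least 4-fold above cortex, and pith lay closer to cortex at 59.2%. There the median was 6.73 in pith, 0 in cortex and 35.7 in vascular tissue. Pith reads were missing at 1029 of the first set and 916 of the second. These transcripts were chosen without pith values, but for a high value in either cortex or vascular tissue, and the median in the other was 0. Under this choice a library other than pith could also lie nearer the lower value. No other library was placed in this way, so whether the shares are particular to pith was not tested. With fewer than 10 cotyledon mesophyll reads pith lay closer to vascular tissue at 83.4% of 2518 transcripts higher in cortex, and closer to cortex at 81.2% of 1883 higher in vascular tissue. After both subtractions the shares were 79.2% and 66.4%.

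Against the other 13 libraries together, 348 of 22977 transcripts (1.51%) had a pith value plus 5 at least 4 times that of every other library, and 0 (0.0%) lay 4-fold or more below every other. To lie below, a transcript needed all 13 at 15 or more, whereas pith alone at 15 or more could put it above. None of the 348 had 200 or more cotyledon mesophyll reads, and 345 were also found after the subtraction (1.5%). Without transcripts with 200, 50 or 10 or more cotyledon mesophyll reads there were 348 (1.57%), 347 (1.8%) and 329 (2.2%). Cotyledon mesophyll is 1 of the 13, so the rule already placed pith 4-fold above it. The subtraction could thus take off only a small part of these pith values, and neither it nor the filters check the 348 independently. The 348 were mostly low: their median in pith was 52.9, 94 had 100 or more pith reads, 94 had no read in any other library, and 276 stayed under 10 in all 11 libraries outside the hypocotyl. With each value raised to at least 3 reads 157 were left. The largest excess was at isotig67277, with 395 pith reads (380) and a single read in each of hypocotyl cortex (3.76), root cortex (2.96), root vascular tissue (1.42) and the apical meristem (1.33). It was followed by isotig60946, with 309 pith reads (297), 3 in root vascular tissue (4.25), 2 in the apical meristem (2.66) and 1 in developing root cortex (1.56). The ratio of the pith value plus 5 to that of the highest other library was 43.9 and 32.7 at these transcripts, and neither had a read in cotyledon mesophyll.

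The closest to a shortfall below every library were isotig99446 and isotig128028. isotig99446 stood at 6.73 in pith (7 reads), and in the others between 25.5 in emerging needles and 853 in root vascular tissue, with a median of 177. isotig128028 stood at 7.69 in pith (8 reads), between 24.1 in emerging needles and 717 in root vascular tissue, with a median of 159. Both were 4-fold or more below hypocotyl cortex and vascular tissue, but as deposited their values plus 5 were 2.60 and 2.29 times below the lowest library. After the subtraction isotig99446 had no pith reads and isotig128028 stood at 0.962 in pith, which put them at -2.61 and -2.29 in log2(value + 5) from the lowest library, past the 4-fold rule. In all, 8 transcripts (0.0348%) then lay 4-fold or more below every other library. None did so as deposited. The subtraction can only lower pith, and the share can exceed a low pith count, so passing the rule here follows from the share taken off.

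A test was possible only against the mean of the 13 others, taking the spread between those tissues as error and assuming that the lone pith library varies like them. Among the 14053 transcripts that reached 10 in 3 or more libraries, limma on log2(value + 5) called 0 higher (0.0%) and 0 lower (0.0%) in pith at a Benjamini-Hochberg adjusted p under 0.05. At an unadjusted p under 0.05 there were 579 higher and 1 lower. edgeR's quasi-likelihood test on recovered reads called 0, with 123 higher and 13 lower at an unadjusted p under 0.05, and DESeq2 called 0 higher and 7 lower, with 39 and 875 at an unadjusted p under 0.05. The lowest p was at isotig62899, which stood at 584 in pith, 67.0 in hypocotyl vascular tissue, 25.3 in young needle vascular tissue and 1.75 in cotyledon vascular tissue, with no reads in the 10 others. Its log2 difference from the mean of the 13 was 6.35 ± 1.26 SE (limma adjusted p = 0.104). Apart from pith it had reads in vascular libraries only. The second, isotig28586, stood at 327 in pith, 15.03 in hypocotyl cortex (4 reads) and 13.04 in the root meristem, with 5.50 ± 1.11 SE (limma adjusted p = 0.104). On the lower side were isotig99446 again, at -3.86 ± 1.66 SE, and isotig128028, at -3.40 ± 1.71 SE, each with a limma adjusted p of 0.938. With transcripts at 10 or more in a single library admitted, limma called 708 higher (3.08% of 22977). Of these, 535 reached 10 in pith alone. For the 157 with no reads elsewhere the spread between the other tissues was 0, so their p-values rest on the variance prior. Counting these 157, 313 had reads in at most 1 other library, and the spread of the remaining calls was not looked at. An exact permutation of which library is the pith cannot give a p below 0.0714.

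Over whole profiles pith was most like cotyledon mesophyll, with a Spearman correlation across 14053 transcripts of 0.651, then hypocotyl cortex at 0.465 and hypocotyl vascular tissue at 0.408. Hypocotyl cortex and vascular tissue correlated with each other at 0.293. After both subtractions the order changed: hypocotyl cortex came first at 0.463, then hypocotyl vascular tissue at 0.416 and cotyledon mesophyll at 0.364. Across the 6908 transcripts with fewer than 10 cotyledon mesophyll reads, hypocotyl cortex was first at 0.378, cotyledon mesophyll followed at 0.328 and hypocotyl vascular tissue was at 0.108. Subtracting a scaled copy of a library lowers the correlation with it by construction, and a filter on its reads narrows its range. The points of each correlation are transcripts of the same 2 libraries, so no p is given. Cortex thus ranked above vascular tissue by correlation in these settings, but with no filter on low values it was at 0.368 and vascular tissue at 0.443, and fewer transcripts were 4-fold apart between pith and vascular tissue. With all transcripts the root meristem was lowest at 0.126, after developing root vascular tissue at 0.166 and emerging needles at 0.220. With fewer than 10 cotyledon mesophyll reads emerging needles were lowest at -0.121, and after both subtractions they lay at 0.128, between the root meristem at 0.0983 and developing root vascular tissue at 0.139.

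**Figure D5:**
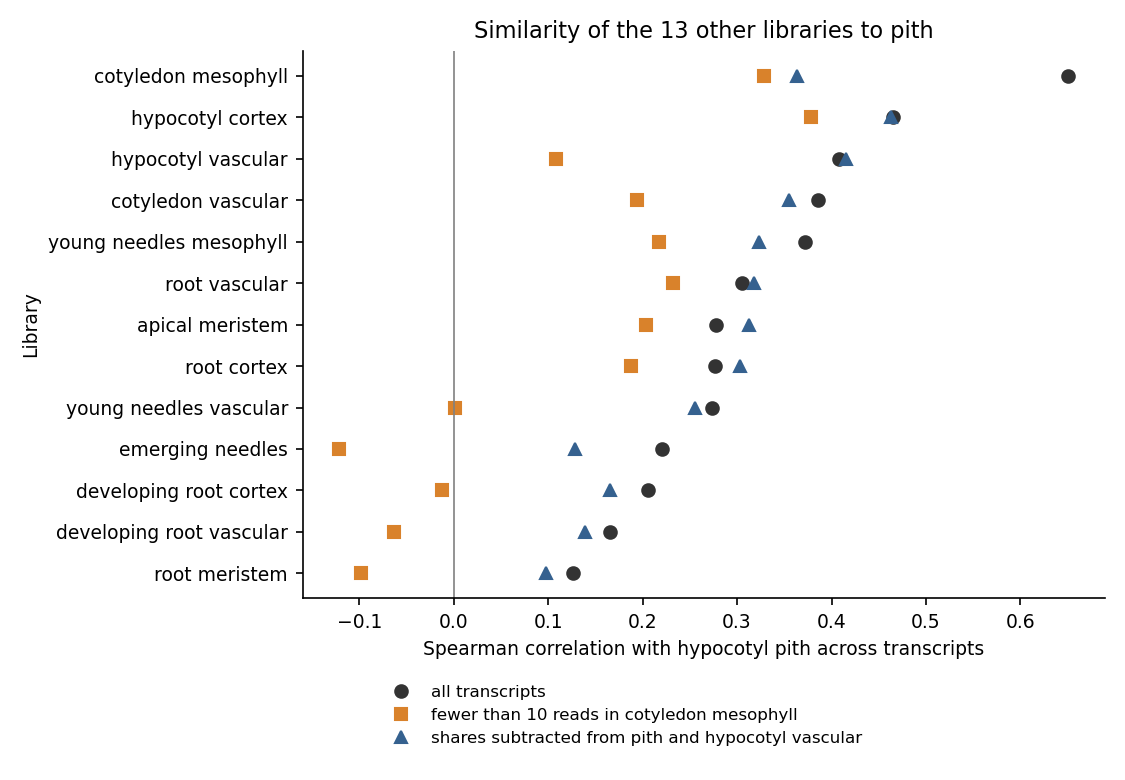
Spearman correlation of each of the 13 other libraries with hypocotyl pith across transcripts, for all transcripts (circles), for those with fewer than 10 reads in cotyledon mesophyll (squares) and after the shares were subtracted from pith and hypocotyl vascular tissue (triangles). Cotyledon mesophyll is highest only for the circles, at 0.651, and hypocotyl cortex is highest for the squares, at 0.378, and the triangles, at 0.463.

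Outside the hypocotyl, transcripts higher in pith than in both neighbours were found on the root side as well as the shoot side, counted over the 11 libraries outside it. Of all 1339, 100 (7.47%) reached 10 in at least 1 of the 5 root libraries and in none of the 6 shoot libraries, against 4.24% of the 16055 compared, and 330 (24.6%) did so in shoot libraries alone, against 24.2%. Both sides held 556 (41.5%, against 60.1%) and neither held 353 (26.4%, against 11.5%). The shares of shoot libraries depend on cotyledon mesophyll, which is 1 of the 6. Of the 736 with fewer than 10 cotyledon mesophyll reads, 100 (13.6%) reached 10 in root libraries alone, against 7.396% of the 9018 compared. Shoot libraries alone held 88 (11.96%, against 26.3% of the 9018), both sides held 196 (26.6%, against 45.9%) and neither held 352 (47.8%, against 20.4%). Of the 180 lower in pith, 135 (75.0%) were at 10 or more on both sides. To be lower, a transcript had to reach 15 or more in both hypocotyl cortex and hypocotyl vascular tissue. The rule itself may thus favour widespread transcripts, and the 9018 compared are not a like base. Pith values chose these sets, so the shares are a description.

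Sets of root and shoot transcripts were also chosen without pith values. Of 24 transcripts at 10 or more in the 4 root and developing root libraries and without reads in the 6 needle, cotyledon, hypocotyl cortex and hypocotyl vascular libraries, 8 had pith reads, 5 of them at 10 or more and the highest at 100.96. Emerging needles had reads at 9 of the 24 and the apical meristem at 16. The apical meristem had reads at every transcript abundant in root cortex, as given above, and the part of this in its 16 was not tested. Of 26 transcripts at 10 or more in those 6 shoot libraries and without reads in the 4 root libraries, all 26 stood at 10 or more in pith, with a median of 249.5 and a highest value of 1737. Emerging needles had reads at 25 of the 26 and the apical meristem at 22. All 26 had cotyledon mesophyll reads by choice, and 20 stayed at 10 or more in pith after the subtraction. A shoot set chosen in the same way but without cotyledon mesophyll reads had 2 transcripts, of which 1 had pith reads and 0 reached 10 in pith.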

How the data were processed

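The deposited table holds 23493 transcripts in 14 columns, and its identifiers are not paired with gene names. Per the submitters' processing notes, FastQC, BWA and edgeR were used, with no versions given. The reference assembly and any filter on low counts are not given in the sources used here. In the deposited signal each count was divided by the library total times a scaling factor, as in edgeR's CPM. In every column 100% of values were whole multiples, within 0.001, of the value of 1 read, so whole reads were recovered. Per the labels' protocols, RNA with an integrity number above 7 was amplified before sequencing.

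Ratios used the value plus 5, where 1 or more of the libraries compared reached 10, with a ratio of 4. Subtracted shares were the 5th percentile of read ratios over transcripts with 200 or more reads in the other library. limma 3.58.1 in R 4.3.3, edgeR 4.0.16 and DESeq2 1.42.0 tested pith against the 13 others. limma and edgeR, but not DESeq2, were first run on simulated counts. These had a single dispersion for all transcripts, so they do not check the use of the spread between tissues as error. Fold changes on log2(value + 5) understate the change of low transcripts. Every tissue was 1 library. Named transcripts were the 2 with the largest excess and shortfall in each comparison and the 2 with the lowest limma p in each direction. The members, rules and alternatives were chosen with earlier results of these data known. Without gene names, no gene or marker list was used.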

Additional observations from a re-analysis of the deposited data

How the results depend on the processing

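No paired analysis was possible because each tissue had 1 library. Counts higher / lower in pith are given in this order. Changing only the amount added or the ratio kept the transcripts compared. These were 16055 against both neighbours, 12909 against cortex, 13333 against vascular tissue and 22977 against all 13. Filters, subtractions, scalings and raised values could change that number, so counts of different settings are not shares of the same transcripts. Against both neighbours they were 2039 / 1111 with 1 added before the ratio, 274 / 11 with 25, 3154 / 1199 at a ratio of 2 and 380 / 20 at a ratio of 8. There were 736 higher (8.16% of 9018) without transcripts with 10 or more cotyledon mesophyll reads. Lower counts were 548 with the pith subtraction (3.58% of 15297), 133 with the hypocotyl vascular subtraction and 357 with both (2.6% of 13754). They were 106 as CPM of the plain total and 113 with 10 or more reads in the higher library. With each value at least 3 reads, an alternative chosen after seeing the data, they were 627 / 110. This was among all 23493, because 3 cortex reads are worth 11.3 and pass the filter of 10. Against cortex they were 731 / 1195 with 25 added, 5180 / 4370 at a ratio of 2 and 1196 / 1717 at 8. Without 50 or 10 or more cotyledon mesophyll reads, 1790 (19.3% of 9259) and 1213 (19.0% of 6401) were higher. With values at least 3 reads 1324 of all 23493 were higher. Against vascular tissue they were 559 / 208 with 25 added, 4668 / 4544 at a ratio of 2 and 815 / 548 at 8. There 3501 were lower with 1 added, 1160 with the hypocotyl vascular subtraction and 1459 with values at least 3 reads. Without 10 or more cotyledon mesophyll reads 1244 (19.0% of 6536) were higher. Above all 13 libraries there were 543 with 1 added, 62 with 25, 919 at a ratio of 2, 95 at 8 and 157 with values at least 3 reads, and 355 to 420 with 1 library left out. Below all 13 there were 3 at a ratio of 2, 8 with the pith subtraction and 8 with both, and 0 with any library left out. The limma counts of 0 became 78 higher with 25 added, 708 with a filter on 1 library and 1185 with none, and DESeq2 gave 7 lower; with 1 library left out they stayed 0. The cause of these shifts was not tested.

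Correlations with cotyledon mesophyll, hypocotyl cortex and hypocotyl vascular tissue were 0.662, 0.547 and 0.523 as Pearson, 0.672, 0.368 and 0.443 with no filter, and 0.599, 0.415 and 0.347 without 200 or more cotyledon mesophyll reads. Without 10 or more they were 0.328, 0.378 and 0.108, and cotyledon mesophyll was at 0.364 with both subtractions. Without 10 or more cotyledon mesophyll reads the correlation turned negative for emerging needles (-0.12), the root meristem (-0.098), developing root vascular tissue (-0.063) and developing root cortex (-0.012), and between hypocotyl cortex and vascular tissue (-0.0055). Where cortex was above vascular tissue, pith was closer to cortex at 16.6% without 10 or more cotyledon mesophyll reads, 20.8% with both subtractions, 34.96% with 1 added, 14.8% at a ratio of 8 and 20.3% as CPM of the plain total. Where vascular tissue was above cortex, it was closer to cortex at 61.4% without 200 or more cotyledon mesophyll reads, 81.2% without 10 or more, 66.4% with both subtractions, 53.5% with 1 added, 56.1% at a ratio of 8 and 57.4% as CPM of the plain total. The differences of the 10 transcripts named by rule kept their sign under each pseudocount, subtraction, scaling and thinning run. isotig99446 and isotig128028 were scored both against the lowest library and against the mean. All were picked as extremes of these same data, so a kept sign was likely in advance. A fit with hypocotyl cortex and vascular tissue as the only others was not run. Depth limits cortex most, where 3 reads are worth 11.3.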

Other observations

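The transcripts above or below both neighbours were also sorted by the library, of the 11 outside the hypocotyl, in which each stood highest. Of the 1339 above both, this was cotyledon mesophyll for 342 (25.5%, against 11.5% of the 16055 compared), root vascular tissue for 125 (9.34%, against 12.2%), the apical meristem for 124 (9.26%, against 19.4%) and emerging needles for 111 (8.29%, against 5.93%). Pith holds the floor against cotyledon mesophyll given above, and its part in the 342 was not tested. No reads in any of the 11 libraries were found for 115. With fewer than 10 cotyledon mesophyll reads it was the apical meristem for 117 of 736 (15.9%, against 27.9% of the 9018 compared), root cortex for 97 (13.2%, against 9.48%), root vascular tissue for 82 (11.1%, against 11.9%) and emerging needles for 75 (10.2%, against 6.09%). Of the 220 below both neighbours, it was young needle vascular tissue for 58 (26.4%, against 12.9% of the 16055) and the apical meristem for 50 (22.7%, against 19.4%). Hypocotyl vascular tissue holds the floor against young needle vascular tissue given above, and its part in the 58 was not tested. Pith values chose these sets, so the shares are a description.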
